A study of Homo sapiens with 24 samples.

Results

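Protocadherins are the largest group within the cadherin family of calcium-dependent adhesion proteins, and they were examined here in human dopaminergic neurons grown as 3D aggregates and exposed to rotenone, an inhibitor of mitochondrial complex I. Members were taken as every array probe whose RefSeq accession maps to a gene symbol that begins with PCDH, with hyphenated symbols left out, and the probes of a gene were averaged. This gave 61 genes measured by 77 probes, of 21743 genes with a symbol on the array. Of these, 59 passed the intensity filter and were tested among 21236 genes. PCDHAC2 and PCDHB19P did not pass it. The α cluster contributed 15 genes, the β cluster 17 and the γ cluster 17, and the other 12 lie outside the clusters. PCDH10 was not matched by accession and was not analysed here.

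LUHMES is an established human mesencephalic line, conditionally immortalized, in which tetracycline in the medium shuts off the immortalizing gene and the cells become postmitotic neurons. All 8 groups were differentiated on a shaker in medium with cAMP, GDNF, tetracycline and N2, and each was represented by 3 wells. On day 7 the aggregates received 50 nM rotenone for 12 or 24 h, 100 nM rotenone for 24 h, or DMSO in the amount carried by the 100 nM dose. A set of wells of each kind was harvested at the end of the exposure (labelled day 8), and the other set was washed and kept without rotenone for 7 days until day 15. Wells of one line are the replicates, and those of a group lie on different slides, so p-values measure the spread between wells and slides together.

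The 24 one-colour arrays had 50.9% to 82.4% of their spots well above background, and the 8 arrays of slide 1 lay at 67.3% to 82.4%. The submitters' description states that slide 1 was repeated and needs batch correction. Each slide held 1 replicate of every group, so replicate number and slide are the same thing here. The residual SD of an array over all genes ran from 0.20 to 0.44 log2 units and was largest in replicate 3 of 100 nM on day 15. The scan name of replicate 1 of day 15 DMSO gives an exposure of 12 h and does not name DMSO, and its group rests on the sample label. All 10 pan-neuronal markers were well above background on all 3 arrays of every group. Of 14 dopaminergic markers, 10 or 11 were. Of markers of other cells, 6 to 9 of 11 for progenitor and dividing cells, 3 or 4 of 6 for the oligodendrocyte lineage, 2 to 5 of 7 for endothelium and fibroblasts, 1 or 2 of 5 for microglia and 0 or 1 of 6 for astrocytes were. In bulk RNA, fewer cells of a type and less RNA per cell cannot be told apart.

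Clustered protocadherins are encoded in a row of 3 clusters on human chromosome 5. In the α and γ clusters each variable exon has its own promoter and is spliced to constant exons that the cluster shares, whereas each β gene is a single exon. Single neurons choose different sets of these promoters, with CTCF and cohesin bound at the active ones, and the resulting proteins bind only like partners on other membranes, a recognition system known for self-avoidance of neurites. The C-type genes at the ends of the α and γ clusters are the exception and are used more uniformly. Non-clustered protocadherins are separate genes. The δ-1 members (PCDH1, PCDH7, PCDH9, PCDH11X, PCDH11Y) and δ-2 members (PCDH8, PCDH17, PCDH18, PCDH19) differ in the number of cadherin repeats and in the conserved motifs of their cytoplasmic tails, and δ-2 members can recruit the WAVE complex, which drives branched actin assembly. Whether a probe lies in a variable or a constant exon was not analysed here.

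The promoter of most clustered genes holds a short conserved element whose core is CGCT, and the windows below are shown because the letters of that element were more frequent in clustered than in non-clustered members. Sequences are from RefSeq on GRCh38.p14, and 51 of the 61 members have a promoter window there. Each line gives 30 bases of the gene strand around CGCT, which is in capitals. PCDHA7 has 2 matches in its promoter window, and its line shows the one farther from the start. Its nearest match, at -16, is not printed but is the one counted in the nearest positions below. The other genes printed have 1 match each. PCDHA6 lies at chr5:140827895-140827924, PCDHA7 at chr5:140834170-140834199, PCDHB9 at chr5:141187072-141187101, PCDHB10 at chr5:141192297-141192326 and PCDHGA9 at chr5:141402712-141402741, all on the plus strand.
PCDHA6: tttggagccgcatgatgtCGCTgtctacca
PCDHA7: atgatggccacatgatgtCGCTctttaccg
PCDHB9: ttggaagccacaaggtggCGCTgcagactg
PCDHB10: gtggaggccacacggtggCGCTgcaggcta
PCDHGA9: gcttaggactctgagcgcCGCTgttgatca
With CGCT aligned, PCDHB9 and PCDHB10 shared 25 of the 30 bases and PCDHA6 and PCDHA7 shared 21. All counts with PCDHA7 rest on the printed match, and the bases around its nearest match were not compared. Pairs from different clusters shared 13 to 19, the 4 matches of the aligned core included.

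In the 250 bases before the annotated start, CGCT on the gene strand was present in 38 of 40 clustered windows (95%) and in 6 of 11 non-clustered windows (54.5%). Over all 27305 genes of the same table the share was 47.9%. By cluster, it was found in 12 of 13 α, 12 of 13 β and 14 of 14 γ windows, and PCDHA9 and PCDHB8 lacked it. CGCT and its complement AGCG can overlap. With either strand counted, the shares were 95% for clustered members, 90.9% for non-clustered members and 64.3% for all genes, so clustered and non-clustered members differed mainly when the strand was counted. On the opposite strand CGCT was found in 0 of 13 β windows, 2 of 13 α windows, 11 of 14 γ windows (78.6%) and 9 of 11 non-clustered windows (81.8%), against 48.3% of all genes. Within the last 100 bases before the start it was present in 37 of 40 clustered and 3 of 11 non-clustered windows, against 28.1% of all genes. Its nearest match to the start lay between -199 and -8 bases in the 38 clustered genes, with a median of -48.0. A match of these letters is a description of the window and shows no binding.

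**Figure D1:**
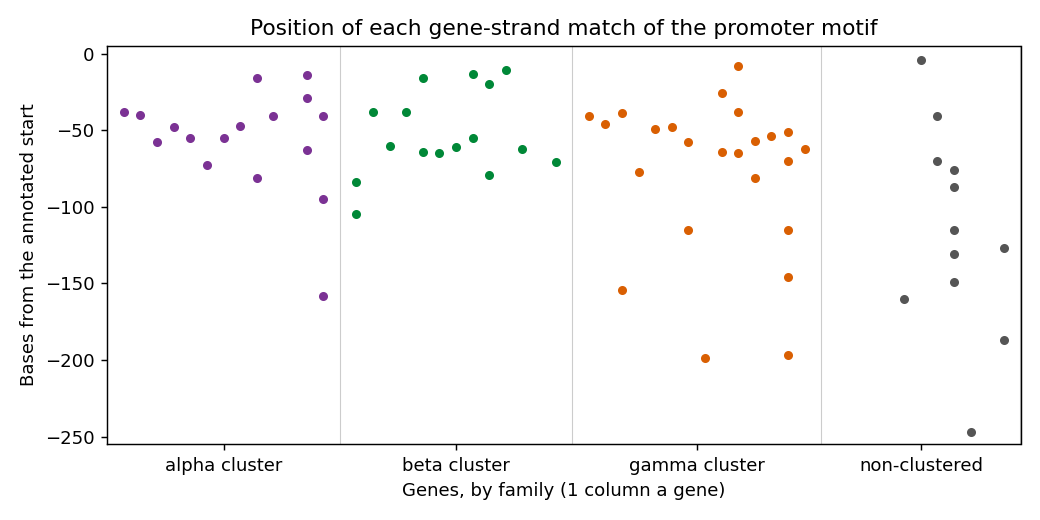
Position of each gene-strand CGCT match in the 250 bases before the annotated start (y axis, bases from the start) for the members with a promoter window (x axis, 1 column per gene, coloured by family). Matches of the clustered families gather near the start, with nearest matches at a median of -48.0 bases, whereas those of the 6 non-clustered genes with a match are spread over the window.

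The windows of PCDH8 and PCDH17 are given in full because these δ-2 genes had lower signal after rotenone. The PCDH8 window lies at chr13:52848641-52848890 on the minus strand of GRCh38.p14, and the PCDH17 window at chr13:57631494-57631743 on the plus strand, both printed along the gene. Capitals mark TATAAA, the TATA box sequence, in PCDH8 and CGCT in PCDH17.
PCDH8: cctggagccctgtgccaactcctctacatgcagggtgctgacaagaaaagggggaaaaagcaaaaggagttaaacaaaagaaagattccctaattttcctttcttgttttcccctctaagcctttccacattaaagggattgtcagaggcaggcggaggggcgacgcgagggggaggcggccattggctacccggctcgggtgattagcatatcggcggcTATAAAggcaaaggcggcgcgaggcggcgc
PCDH17: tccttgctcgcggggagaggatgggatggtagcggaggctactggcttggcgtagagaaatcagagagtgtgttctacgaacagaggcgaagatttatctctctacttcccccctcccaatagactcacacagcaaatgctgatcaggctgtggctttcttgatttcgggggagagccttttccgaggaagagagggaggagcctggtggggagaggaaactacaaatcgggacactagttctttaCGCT
TATAAA stood at -30 in PCDH8 and occurred on the gene strand in 5 of 51 members (PCDHA6, PCDHA10, PCDHA12, PCDHB12 and PCDH8; 9.8%), against 7.17% of all genes. With both strands counted the shares were 11.8% and 11.1%. The PCDH8 window had no CGCT on the gene strand, and PCDH17 had it at -4. GC content was 54.8% in the PCDH8 window and 52.8% in that of PCDH17.

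Signal was above background for most members, though unevenly by cluster. Of the 61, 28 were well above background on all 24 arrays: 12 β, 6 γ, 3 α, 4 δ-1 and 2 δ-2 genes and 1 other gene. Another 3 were well above background on no array (PCDHB19P, PCDHGB6 and PCDHGB8P), and 48 were on at least 12 arrays. Spots were not saturated. The median SD within groups was 0.230 log2 units for the 59 tested members and 0.220 for all genes. It was 0.169 for β, 0.216 for non-clustered, 0.288 for γ and 0.313 for α genes, so smaller changes could be resolved in the β cluster than in the α cluster.

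The question of the day 8 comparisons was which genes respond to rotenone at the end of the exposure. After 100 nM for 24 h, 4 members fell and 0 rose. A call needed a fold change above 1.5 and a Benjamini-Hochberg adjusted p under 0.05 in limma. Over all genes 2.03% fell and 1.44% rose under this rule. All 4 were non-clustered (PCDH8, PCDH20, PCDH17 and PCDH11Y), which is 33.3% of the 12 non-clustered members. Of the 47 clustered members 0 were called, and 1 was lower at an unadjusted p under 0.05, against 11.8% of all genes. Of the 59, 45 had a log2 fold change below 0 (76.3%), against 53.5% of all genes. The median was -0.17 for the members and -0.02 for all genes. For 16 of the 59 (27.1%) the treated and control arrays did not overlap, against 28.5% of all genes, so that share was near the background.

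PCDH8, a δ-2 protein induced by activity at synapses and known to drive internalization of N-cadherin, had the largest change among the 59 members. Its log2 signal on day 8 was 8.35, 8.63 and 8.36 in DMSO (replicates 1, 2 and 3) and 6.73, 7.13 and 6.92 after 100 nM rotenone. After 50 nM it was 7.16, 7.12 and 7.25 at 24 h and 7.87, 7.68 and 7.80 at 12 h. All 9 treated arrays lay below the 3 DMSO arrays, and the 12 h arrays lay between DMSO and both 24 h groups. After 100 nM PCDH8 fell 2.87-fold (log2 fold change -1.52, SE 0.13, adjusted p = 6.8e-07 in limma). It fell 2.42-fold after 50 nM for 24 h (log2 fold change -1.27, adjusted p = 6.9e-06) and 1.59-fold after 50 nM for 12 h (-0.67, adjusted p = 0.0033). On slides 2 and 3 alone these were -1.47 (adjusted p = 0.0041), -1.32 (0.0086) and -0.77 (0.082). The 12 h call was also lost without replicate 2 of day 8 DMSO.

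**Figure D2:**
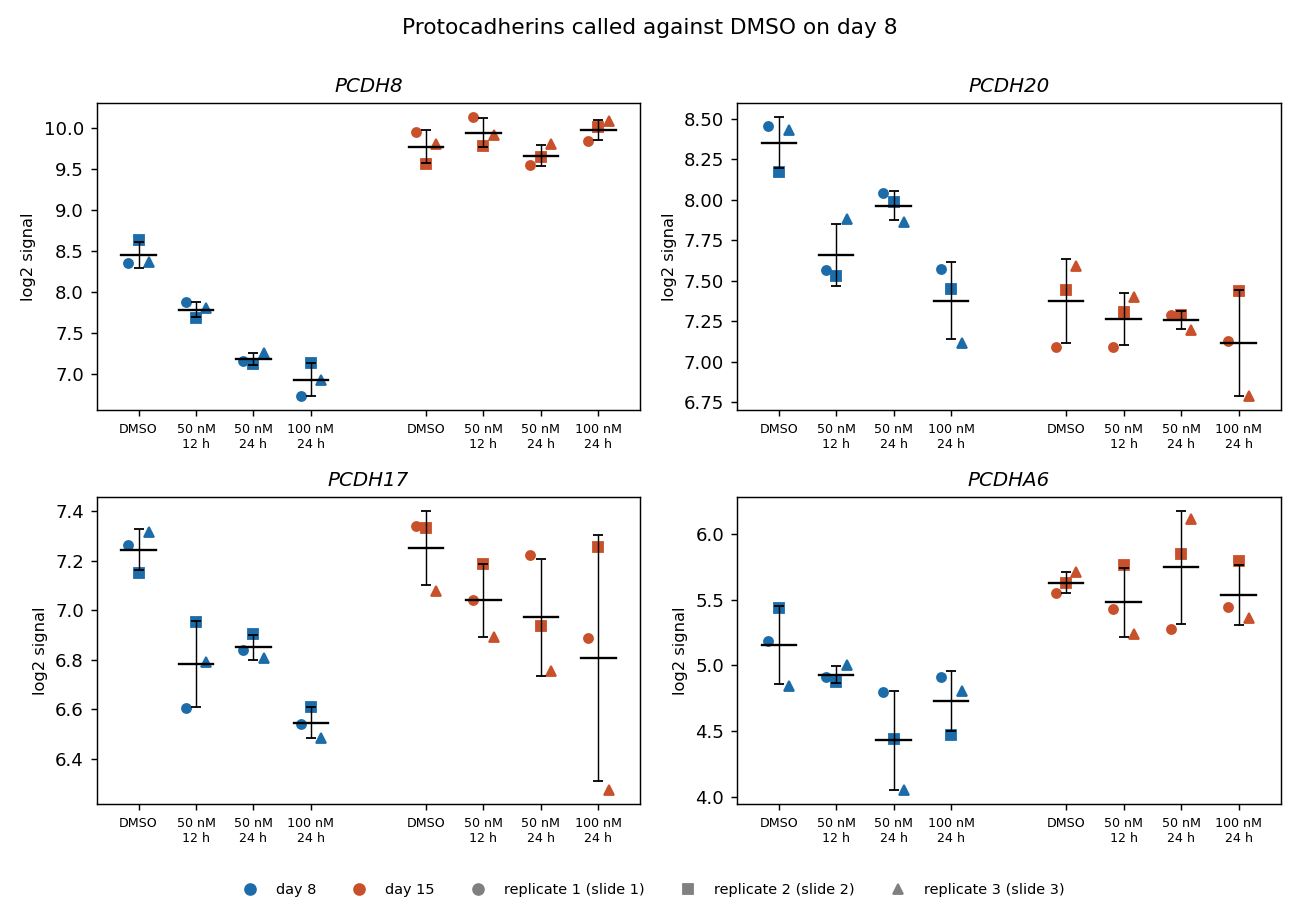
Log2 signal (y axis) of PCDH8, PCDH20, PCDH17 and PCDHA6 on each array in the 8 groups (x axis), with the mean and SD of 3 arrays, the marker shape giving the replicate, which is also the slide, and day 8 in blue and day 15 in orange. PCDH8 falls from 8.35 to 8.63 in day 8 DMSO to 6.73 to 7.13 after 100 nM, and all its day 15 groups lie above 9.5.

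Dose and time of PCDH8 were then compared directly, in comparisons added after the data were seen. At 24 h, 100 nM differed from 50 nM by -0.25 log2 units (adjusted p = 1.0 in limma). Under this rule 0 members were called between the doses, 3 had an unadjusted p under 0.05 (4.17% of all genes did), and 0% of all genes were called lower. Between 24 h and 12 h of 50 nM, PCDH8 fell by 0.61 (SE 0.13, adjusted p = 0.032) and was the only member called, against 0.118% of all genes called lower. That call was lost in 12 of 17 alternatives, among them leaving out any 1 of the 6 arrays. The day 8 DMSO group has no exposure length in its label, so length of exposure and time of harvest cannot be told apart.

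PCDH20, a non-clustered gene outside the δ subgroups, had a log2 signal of 8.46, 8.17 and 8.43 in day 8 DMSO and 7.57, 7.45 and 7.11 after 100 nM. It was 8.04, 7.98 and 7.86 after 50 nM for 24 h and 7.57, 7.53 and 7.88 after 50 nM for 12 h. The treated arrays lay below DMSO in all 3 groups, and the 24 h group at 50 nM lay closest to it. PCDH20 fell by 0.97 after 100 nM (SE 0.16, adjusted p = 0.00068 in limma), 1.97-fold, and by 0.69 after 50 nM for 12 h (adjusted p = 0.015), 1.62-fold. The difference at 50 nM for 24 h was -0.39 (adjusted p = 0.18). Slides 2 and 3 alone gave -1.02 (adjusted p = 0.078) for 100 nM and -0.59 (adjusted p = 0.44) for 12 h. The 12 h call was lost in 8 of 17 alternatives, including leaving out replicate 1 or 3 of DMSO, or replicate 1 or 2 of the treated group.

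PCDH17, a δ-2 protein that recruits the WAVE complex at axon contacts and is known for organizing presynaptic vesicles, had a log2 signal of 7.27, 7.15 and 7.32 in day 8 DMSO and 6.54, 6.61 and 6.49 after 100 nM. After 50 nM it was 6.84, 6.91 and 6.81 at 24 h and 6.60, 6.95 and 6.79 at 12 h. Every treated array lay below the DMSO arrays. The 100 nM change was a fall of 0.70 (SE 0.18, adjusted p = 0.015 in limma), 1.62-fold, and the 50 nM differences were -0.39 at 24 h (adjusted p = 0.22) and -0.46 at 12 h (adjusted p = 0.16). The 100 nM call of PCDH17 was lost in 7 of 17 alternatives, namely the larger background offset, no batch correction, slides 2 and 3 alone (-0.69, adjusted p = 0.38), and leaving out replicate 1 or 3 of either group.

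The other δ-2 genes had wider spreads. PCDH18 had a log2 signal of 4.84, 5.11 and 4.64 in DMSO, where 2 of 3 arrays were well above background, and of 4.44, 4.07 and 3.22 after 100 nM, where 0 of 3 were. Its difference was -0.96 (SE 0.32, adjusted p = 0.067 in limma) and was not called. Since the treated arrays were not well above background, the fall of the mean was also taken with a floor, which gave 1.53-fold. This value does not allow for the spread between wells. It is not a strict lower limit, since spots not well above background can lie above the floor. The mean of DMSO was set against a treated mean. Each treated array entered as the higher of the gene's own signal and the lowest signal of any probe well above background on that array. PCDH19, whose loss causes an epilepsy and which acts together with N-cadherin, differed by -0.25 (adjusted p = 0.71) and was well above background on 3 DMSO and 1 treated array.

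Among δ-1 members on day 8, PCDH11Y had the one called change. PCDH11X and PCDH11Y are near-identical paralogs, so signal cannot be assigned between them. The PCDH11Y probes gave -0.76 at 100 nM (SE 0.15, adjusted p = 0.0023 in limma), -0.62 at 50 nM for 24 h (adjusted p = 0.012) and -0.52 at 50 nM for 12 h (adjusted p = 0.041), the last below the fold limit. Single probes gave -0.95, -0.67 and -0.65 at 100 nM, the last with an adjusted p of 0.20. The PCDH11Y call at 50 nM was lost without replicate 3 of that group. The PCDH11X probes gave -0.18 at 100 nM (SE 0.19, adjusted p = 0.71). Mean log2 signal of PCDH11X was 5.67 in DMSO, 5.23 after 50 nM for 24 h and 5.28 after 50 nM for 12 h. At 50 nM for 24 h it was lower at an unadjusted p under 0.05 in limma but not called. PCDH1, an epithelial adhesion protein and hantavirus receptor, differed by -0.17, PCDH7 by -0.30 and PCDH9 by -0.14 at 100 nM, with none called. PCDH15, which forms the hair-cell tip link with CDH23, differed by -0.40 (adjusted p = 0.18), and the endothelial gene PCDH12 by -0.01.

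**Figure D3:**
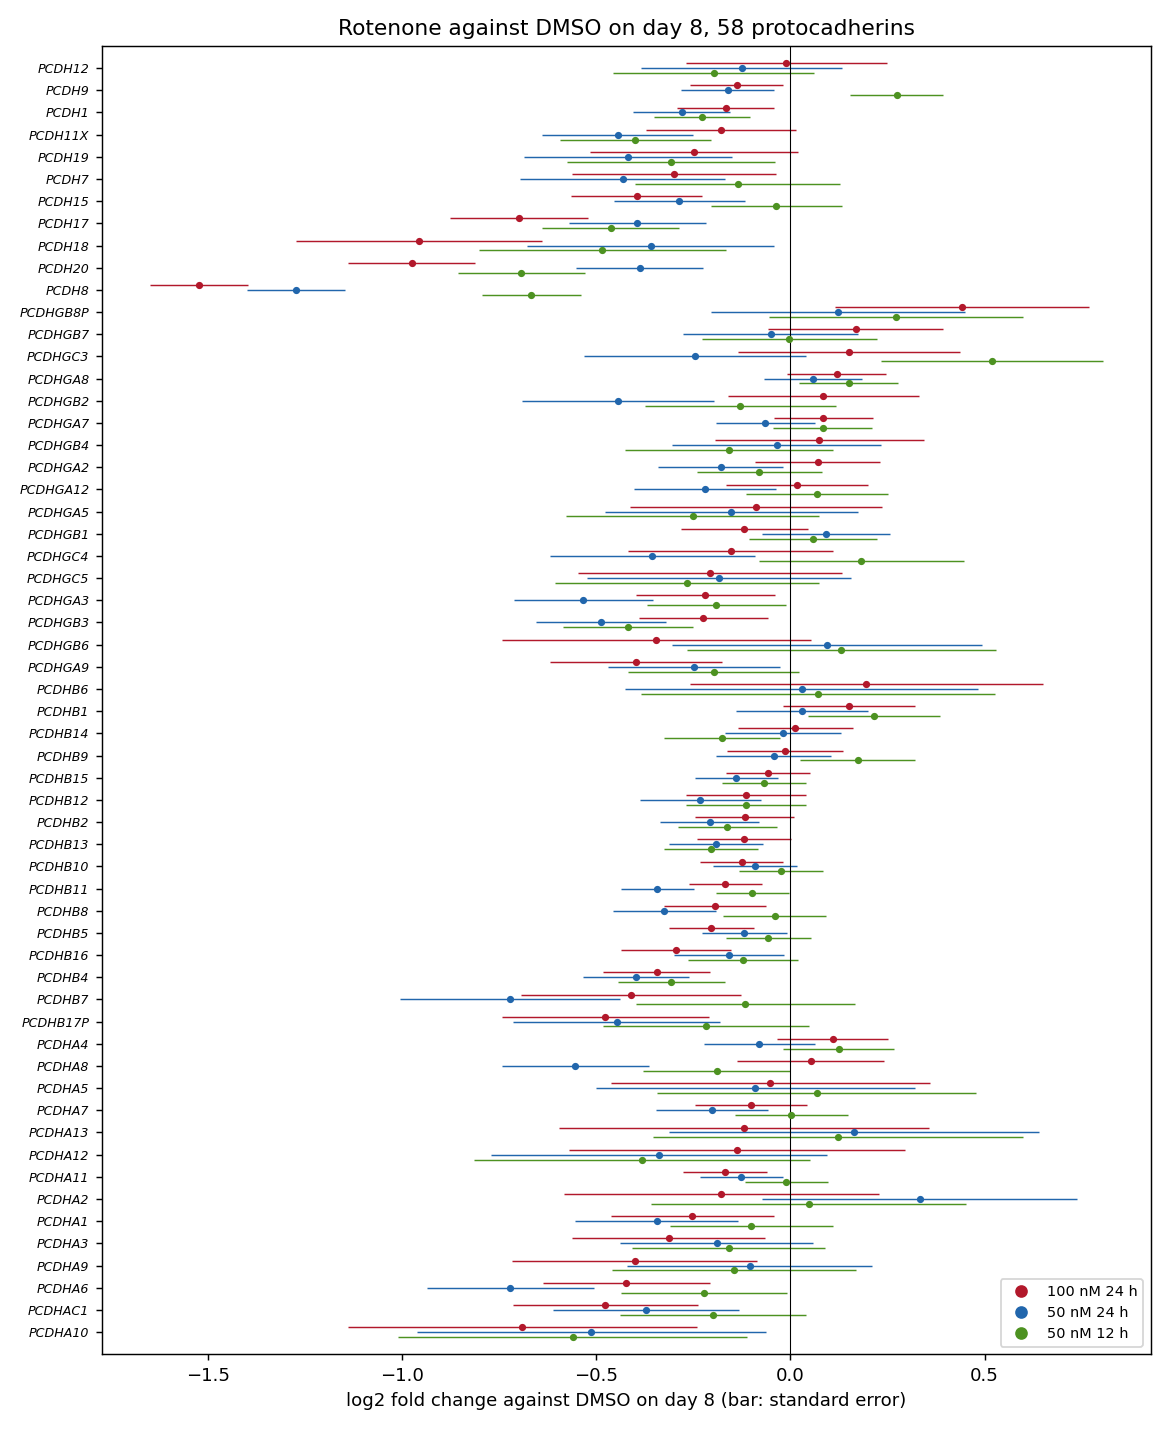
Log2 fold change against DMSO on day 8 (x axis) with its SE for 58 protocadherins (y axis; PCDH11Y is not drawn), with 1 colour for each of the 3 rotenone exposures. In the order 100 nM, 50 nM at 24 h and 50 nM at 12 h, PCDH8 at -1.52, -1.27 and -0.67 and PCDH20 at -0.97, -0.39 and -0.69 are drawn among the non-clustered genes, and most clustered genes lie within 0.5 of 0.

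At 50 nM for 24 h, 3 members fell and 0 rose (PCDH8, PCDH11Y and PCDHA6), against 1.42% of all genes lower and 1.40% higher. Of the 59, 51 lay below 0 (86.4%, against 52.9% of all genes), with a median of -0.21. For 18 members the groups did not overlap (30.5%), against 28.2% of all genes. At 50 nM for 12 h, 2 fell and 0 rose (PCDH8 and PCDH20), against 0.928% of all genes lower and 0.833% higher. There 42 of 59 lay below 0 (71.2%, against 51.5%), with a median of -0.12, and 9 did not overlap (15.3%), against 23.6% of all genes. The 3 comparisons share their DMSO arrays, so a low or high DMSO value moves all of them together.

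Medians below 0 were also found for the 10 pan-neuronal markers on day 8. Their median log2 fold change was -0.15 at 100 nM, -0.20 at 50 nM for 24 h and -0.05 at 50 nM for 12 h, and 5, 5 and 3 of them were lower at an unadjusted p under 0.05, against 11.8%, 11.1% and 9.01% of all genes. At the same limit 0, 0 and 1 of them were higher, against 8.73%, 8.50% and 7.76% of all genes. ELAVL4, an RNA-binding protein of neurons, fell by 0.71 at 50 nM for 24 h and was the only marker of this list called. The log2 of the summed signal of the list, which is weighted to its brightest genes, was 17.77 to 17.95 in DMSO and 17.70 to 17.72 at 100 nM. At 50 nM it was 17.65 to 17.80 for 24 h and 17.73 to 17.90 for 12 h. Medians of the other lists at 100 nM ran from -0.26 for progenitor and dividing-cell markers to 0.12 for endothelial and fibroblast markers. The part of the shift of neuron markers in the protocadherin medians was not tested.

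By cluster, the median log2 fold change at 100 nM was -0.17 for α (12 of 14 below 0), -0.12 for β (13 of 16) and 0.02 for γ (8 of 17). The γ median had no settled sign, since it was -0.06 with scaling to the 75th percentile and 0.23 with the processed signal. At 50 nM for 24 h the medians were -0.20, -0.17 and -0.18, and at 12 h -0.12, -0.11 and -0.00. For the 12 non-clustered genes the medians were -0.35, -0.39 and -0.35 in the same order, with 12, 12 and 11 below 0. The processed signal moved the median of all genes itself to 0.10 at 100 nM.

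PCDHA6 was the only clustered gene called with rotenone on day 8. Its log2 signal was 5.18, 5.43 and 4.84 in DMSO, 4.80, 4.44 and 4.05 after 50 nM for 24 h, 4.91, 4.88 and 5.002 after 50 nM for 12 h and 4.91, 4.47 and 4.81 after 100 nM. The 50 nM 24 h arrays, of which 2 were well above background, lay just below the lowest DMSO array. PCDHA6 fell by 0.72 there (SE 0.21, adjusted p = 0.045 in limma), 1.65-fold, and differed by -0.42 at 100 nM (adjusted p = 0.28) and -0.22 at 12 h. With the replicate as a block in place of batch correction the difference was -0.74 (adjusted p = 0.054), and the call was lost in 11 of 17 alternatives, including leaving out replicate 1 or 2 of DMSO or 2 or 3 of the treated group.

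PCDHA8 had a log2 signal of 4.66, 4.67 and 5.06 in DMSO, 4.58, 3.89 and 4.25 after 50 nM for 24 h (1 of 3 well above background) and 4.78, 4.91 and 4.85 after 100 nM. The 50 nM 24 h difference from DMSO was -0.55 (adjusted p = 0.086), and 100 nM exceeded 50 nM by 0.61 (adjusted p = 1.0 in limma). PCDHA10 had the lowest α value at 100 nM, -0.69, with an SE of 0.45 (adjusted p = 0.45), and was well above background on 1 of the 3 treated arrays. In the β cluster, PCDHB11 passed the p limit at 50 nM for 24 h with 11.02, 11.08 and 11.06 in DMSO and 10.68, 10.71 and 10.74 treated, a fall of 0.34 (SE 0.09, adjusted p = 0.029) that is under the fold limit. Its wells differed by less than 0.1 within each group.

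PCDHB4 had 7.60, 7.80 and 7.84 in DMSO and 7.38, 7.40 and 7.44 after 100 nM, a difference of -0.34 (SE 0.14, adjusted p = 0.14 in limma), and was the clustered gene with the smallest p at that dose. PCDHGA9 had 4.50, 4.85 and 4.39 in DMSO and 4.44, 4.21 and 3.89 after 100 nM, a difference of -0.40 (SE 0.22, adjusted p = 0.34). Its groups overlapped, it was well above background on 2 DMSO arrays and 1 treated array, and it had the smallest p of the γ genes. Of the C-type genes, PCDHAC1 differed by -0.48 at 100 nM (adjusted p = 0.28) and was well above background on 3 DMSO and 2 treated arrays. PCDHGC3 was well above background on none of these 6 arrays and PCDHGC4 and PCDHGC5 on 1 array of each group, so no difference is given for them.

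The day 15 comparisons asked what remained after wash-out. Of the 59 members 0 were called at 100 nM or at either exposure to 50 nM, and 0% of all genes were called in each (limma). At an unadjusted p under 0.05 (100 nM, then 24 h and 12 h of 50 nM), 6, 0 and 6 members were lower and 0 were higher, against 4.92%, 1.56% and 1.96% of all genes lower. At a fold change above 1.5 with an unadjusted p under 0.01, 0 members passed in each, against 0.749%, 0.226% and 0.424% of all genes. The members' medians were -0.10, 0.02 and -0.12, with 39, 26 and 41 of 59 below 0. Over all genes 56.2%, 49.9% and 54.0% were below 0.

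PCDH8 after wash-out had a log2 signal of 9.95, 9.56 and 9.80 in DMSO, 9.84, 10.01 and 10.08 after 100 nM, 9.54, 9.64 and 9.79 after 50 nM for 24 h and 10.13, 9.78 and 9.91 after 50 nM for 12 h. The groups overlapped. The 100 nM difference was 0.21 (95% CI -0.06 to 0.47, adjusted p = 0.73 in limma), and the others were -0.11 (95% CI -0.38 to 0.15) and 0.17 (95% CI -0.10 to 0.43). PCDH20 differed by -0.26, -0.12 and -0.11 and PCDH17 by -0.44 (95% CI -0.82 to -0.07, adjusted p = 0.65), -0.28 and -0.21, in that order of exposures.

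PCDH1 had the smallest p of the members on day 15. Its log2 signal was 6.61, 6.70 and 6.80 in DMSO, 6.49, 6.15 and 5.85 after 100 nM and 5.99, 6.28 and 6.23 after 50 nM for 12 h, below every DMSO array in both. The differences were -0.54 (SE 0.12, adjusted p = 0.32 in limma) and -0.53 (adjusted p = 1.0). Without replicate 1 of 100 nM PCDH1 was called, and this was the only member called when any 1 array was left out. PCDH9 differed by -0.39 (adjusted p = 0.55) and PCDH19 by -0.62 (adjusted p = 0.67) at 100 nM, the latter well above background on 2 DMSO arrays and 1 treated array.

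The difference between days in the 100 nM response was tested as an interaction. It was called for PCDH8 and PCDH11Y, both higher on day 15, against 0.918% of all genes higher and 1.03% lower. For PCDH8 the day 15 change exceeded the day 8 change by 1.73 (SE 0.18, adjusted p = 5.1e-05 in limma), and by 1.85 on slides 2 and 3 alone (adjusted p = 0.022). For PCDH11Y it was 0.86 (SE 0.21, adjusted p = 0.032), a call lost in 12 of 26 alternatives, including leaving out replicate 2 or 3 of day 8 DMSO, 3 of day 8 100 nM, 1 or 3 of day 15 DMSO or 2 of day 15 100 nM. PCDH11Y differed from DMSO on day 15 by 0.10, 0.04 and 0.05. PCDH20 gave 0.72 (SE 0.23, adjusted p = 0.12) and PCDH17 0.25 (adjusted p = 0.72), so a difference between days was not shown for them.

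**Figure D4:**
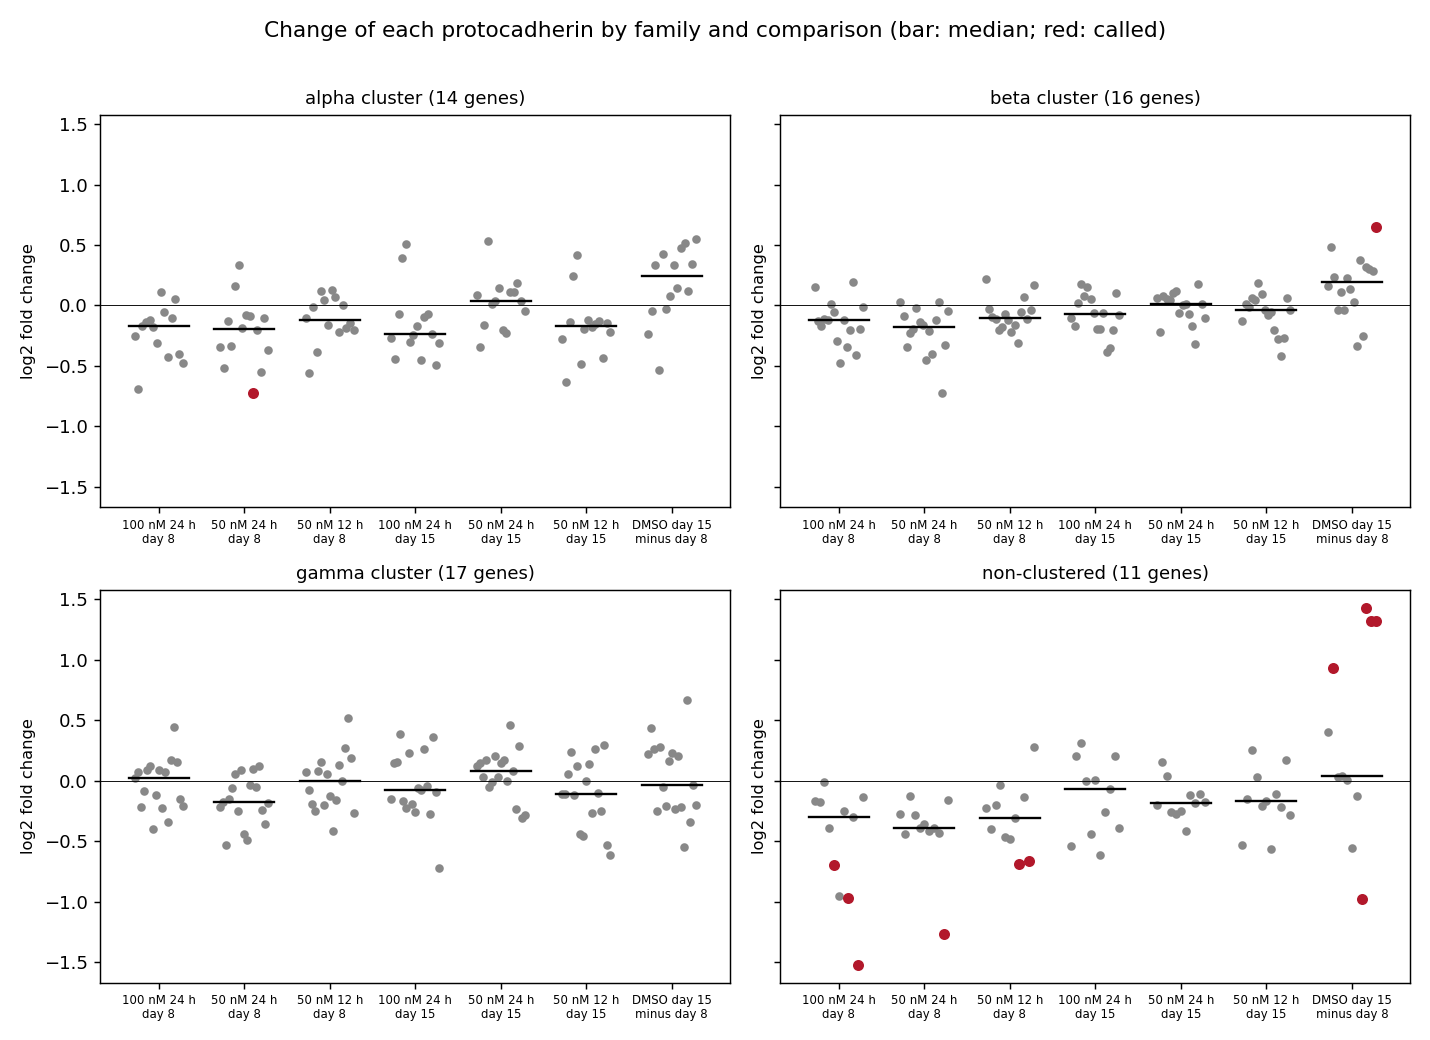
Log2 fold change of each protocadherin (points, y axis) in the 3 day 8, the 3 day 15 and the DMSO day 15 against day 8 comparisons (x axis), 1 panel per family, with the family median as a bar and called genes in red; PCDH11Y is not drawn. Called points are non-clustered except PCDHA6 (50 nM, 24 h) and PCDHB9 (between days), and the day 15 rotenone comparisons have none.

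Day 15 against day 8 in DMSO gave more calls among the members than any rotenone comparison. The same held over all genes, of which 12.2% were called between DMSO days and 3.48% at 100 nM on day 8. Differentiation, time in culture and wash-out go together between these groups and cannot be told apart. Between DMSO days 5 members rose (PCDH7, PCDH9, PCDH8, PCDH11X and PCDHB9; 8.47%) and PCDH20 fell (1.69%). Over all genes 5.80% were higher and 6.37% lower. Of the 12 non-clustered members 4 rose and 1 fell, and of the 47 clustered members 1 rose. Only 20 of 59 lay below 0, and the median was 0.16, against -0.03 for all genes. For 23 members the groups did not overlap (38.98%), against 40.0% of all genes. Medians were 0.24 for α, 0.19 for β, -0.04 for γ and 0.22 for non-clustered genes.

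Of the δ-1 genes, PCDH7, whose cytoplasmic tail binds the chromatin regulator SET, had a log2 signal of 5.60, 5.96 and 5.52 on day 8 and 7.50, 7.15 and 6.72 on day 15. PCDH9 went from 5.36, 5.57 and 5.23 to 6.88, 6.79 and 6.47. PCDH11X went from 5.73, 5.85 and 5.44 to 6.45, 6.31 and 7.05. In all 3 every day 15 array lay above every day 8 array. PCDH7 rose by 1.43 (SE 0.26, adjusted p = 0.0005 in limma), 2.69-fold, PCDH9 by 1.32 (SE 0.12, adjusted p = 1.3e-07), 2.50-fold, and PCDH11X by 0.93 (SE 0.19, adjusted p = 0.0015), 1.90-fold. The PCDH9 probes taken singly gave 1.19 and 1.46. On slides 2 and 3 alone the values were 1.17 (adjusted p = 0.11) for PCDH7, 1.22 (0.0024) for PCDH9 and 1.04 (0.072) for PCDH11X.

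PCDH1 went from 6.33, 6.17 and 6.39 to 6.61, 6.70 and 6.80, a rise of 0.40 (adjusted p = 0.024 in limma) under the fold limit. PCDH8 rose by 1.32 (adjusted p = 2.6e-07), 2.50-fold, and by 1.17 on slides 2 and 3 (adjusted p = 0.00094). PCDH20 moved the other way, from 8.46, 8.17 and 8.43 to 7.09, 7.45 and 7.59, and fell by 0.98 (adjusted p = 0.00019; -0.77 with adjusted p = 0.076 on slides 2 and 3). PCDH17 differed by 0.01.

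Of the clustered genes PCDHB9 alone passed both limits between DMSO days. PCDHB9, whose promoter element is printed above, went from 10.51, 10.93 and 10.71 to 11.27, 11.46 and 11.36 and rose by 0.65 (SE 0.15, adjusted p = 0.0032 in limma), 1.57-fold, or 0.59 on slides 2 and 3 (adjusted p = 0.13). Its call was lost without replicate 1 of day 8 DMSO. Its neighbour PCDHB10 went from 8.93, 9.23 and 9.10 to 9.63, 9.72 and 9.37, a rise of 0.49 (adjusted p = 0.0026), and PCDHA7 from 7.54, 7.78 and 7.84 to 8.54, 8.25 and 7.92, a rise of 0.52 (adjusted p = 0.013). PCDHA11 rose by 0.34 (adjusted p = 0.027). These passed the p limit below the fold limit. PCDHA6 differed by 0.48 (adjusted p = 0.12).

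**Figure D5:**
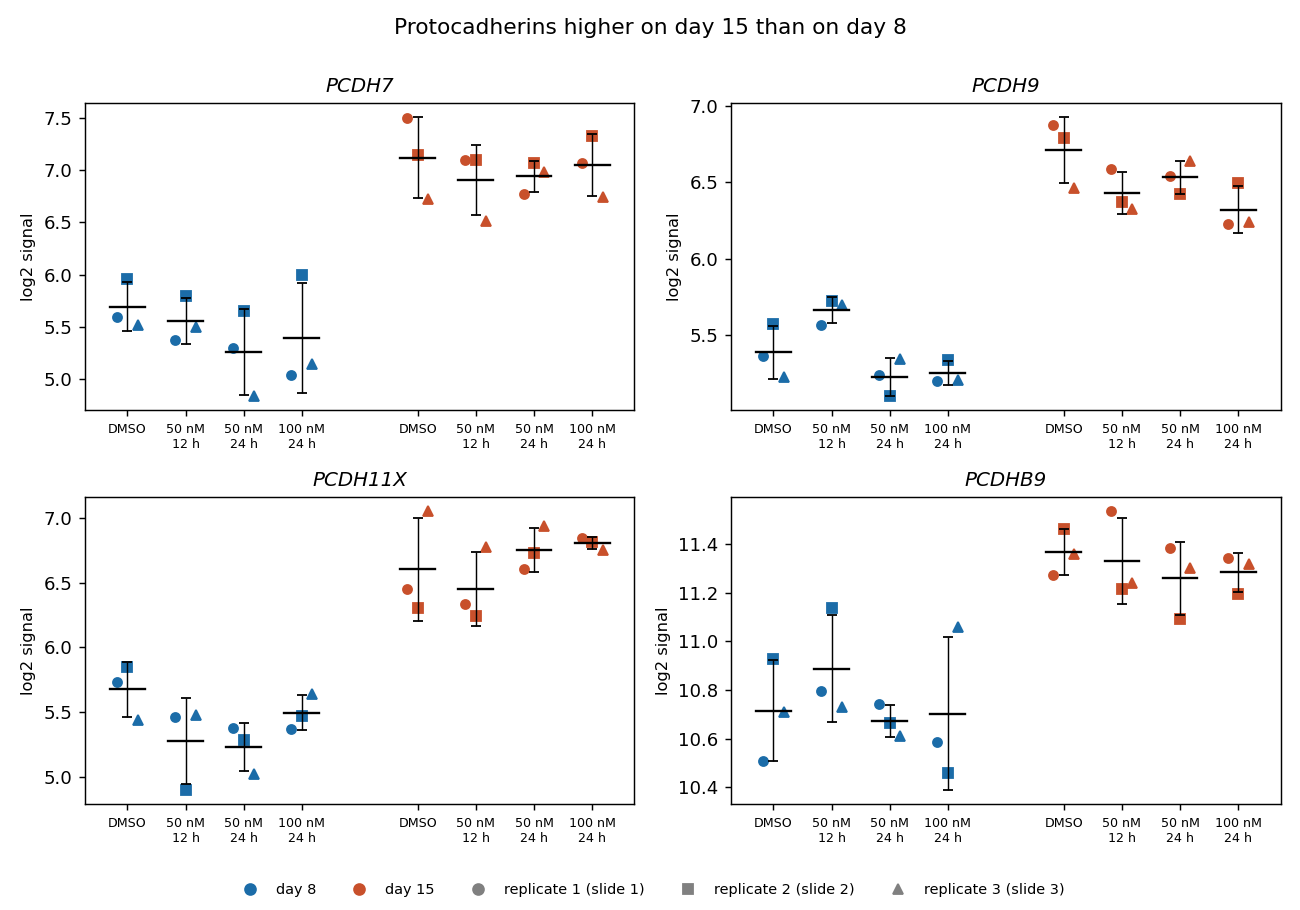
Log2 signal (y axis) of PCDH7, PCDH9, PCDH11X and PCDHB9 on each array in the 8 groups (x axis), with the mean and SD of 3 arrays and marker shape giving the replicate. In DMSO each gene is higher on day 15 than on day 8 on every array, PCDH9 for example at 6.47 to 6.88 against 5.23 to 5.57.

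Genes that act with protocadherins were taken from lists. Of 22 tested WAVE complex subunits and protocadherin partners, 0 were called in any rotenone comparison against DMSO (limma). On day 8 at 100 nM, 1 was higher and 5 were lower at an unadjusted p under 0.05, against 8.73% and 11.8% of all genes. Between DMSO days DAB1, a reelin adaptor, rose by 0.81, whereas CDH23, the partner of PCDH15, fell by 1.25 (well above background on 2 of 3 day 15 arrays), CYFIP1, a WAVE subunit, fell by 1.43 and CTNNB1, β-catenin, fell by 0.75. Of 19 tested chromatin factors linked to promoter choice in the clusters, such as CTCF and cohesin subunits, 0 were called in any comparison. Their median was -0.21 at 100 nM on day 8, where 0 were higher and 4 lower at an unadjusted p under 0.05, and -0.20 between DMSO days, where 2 were higher and 7 lower. The shares of all genes between DMSO days were 14.6% higher and 19.2% lower.

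Of 41 other cadherin-family genes tested, 2 rose and 4 fell at 100 nM on day 8, against 1.44% and 2.03% of all genes. CDH3, P-cadherin, rose by 1.08 and FAT1, a giant atypical cadherin, by 1.01. The classical type II cadherins CDH9, CDH18, CDH11 and CDH10 fell, by 1.35, 1.18, 0.97 and 0.86. At 50 nM for 24 h CDH3 and FAT1 rose and CDH9 and CDH18 fell, and at 12 h CDH3 and FAT1 rose by 1.21 and 1.72. Over all genes 1.40% rose and 1.42% fell at 24 h, and 0.833% rose and 0.928% fell at 12 h. On day 15 0 were called with rotenone. At an unadjusted p under 0.05 in limma (100 nM, then 24 h and 12 h of 50 nM), 4, 2 and 0 were lower. The shares of all genes were 4.92%, 1.56% and 1.96%. Between DMSO days 7 rose and 4 fell, against 5.80% and 6.37% of all genes. CDH11, CDH9 and CDH18 were up by 2.19, 2.18 and 2.11. CDH9, CDH18 and CDH11 were thus lower at 100 nM on day 8 and higher on day 15 in DMSO, as PCDH8 was. Of the other protocadherins and cadherins called lower at 100 nM, PCDH20 was lower in both comparisons, and PCDH17 and CDH10 were not called between DMSO days. PCDH11Y was higher between DMSO days at an unadjusted p under 0.05 in limma but was not called. How many of all genes were lower at 100 nM and higher on day 15 was not counted.

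Markers of other cells and of division moved between days, where 5.80% of all genes were called higher and 6.37% lower in DMSO. From day 8 to day 15 in DMSO, OLIG1 fell by 5.17. The log2 of the summed signal of the oligodendrocyte-lineage list was 12.75 to 12.84 on day 8 and 8.27 to 8.69 on day 15. Such a sum is weighted to the brightest genes of a list. Only OLIG1 and OLIG2 of the 6 tested were called, both lower, and the median change of the list was -0.27. Of 11 progenitor and dividing-cell markers 5 fell and VIM rose by 0.67. BIRC5 of this list fell by 2.61. Of 14 dopaminergic markers NR4A2, RET, KCNJ6 and LMX1B rose, by 1.57, 1.22, 1.15 and 0.74, whereas TH fell by 2.94 and SLC6A3 fell by 2.06, and the median was 0.15. At 100 nM on day 8 the log2 of the oligodendrocyte-lineage sum was 12.62 to 12.88. That of progenitor and dividing cells was 14.58 to 14.75, against 14.14 to 14.40 in DMSO. The median change of the latter list was nevertheless -0.26, with 0 called higher and HES5 called lower, and at an unadjusted p under 0.05 2 were higher and 2 lower. The part of these shifts in the protocadherin values was not tested.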

How the data were processed

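The authors hybridized total RNA of 24 wells to one-colour Agilent SurePrint G3 v2 8x60K arrays and deposited scanner intensity values per spot and a normalized log2 table. The submitters' processing notes name Agilent Feature Extraction 11.5.1.1 and R 3.5. The files' headers give version 12.0.0.7 for the 8 arrays of slide 2. From the deposited intensity values, median signals were background-corrected (normexp, offset 0), quantile-normalized and corrected for slide 1 against the others (ComBat, groups as covariates). Spots then above 1.1 times the 95th percentile of negative controls on at least 3 arrays were kept and averaged per probe and gene. By accession, 30275 of 50599 probes were named. limma 3.58.1 in R 4.3.3 fitted all 24 arrays, with Benjamini-Hochberg adjustment over 21236 genes. The correction before the fit is not counted in its degrees of freedom. Replicate numbers are slide numbers and pair the arrays. Before batch correction, deviations from group means correlated at 0.168 or more between same-numbered arrays (84 pairs, median 0.464). Those of different numbers correlated at a median of -0.358, but centring on means of 3 arrays itself pushes such values negative. The slide 1 effect is still in these values. The authors' log2 values served as an alternative. Array number limits precision. Named members are those called, those with the smallest p of their family, and examples for each role. The members and lists were chosen with earlier results of these data known. The script was tested on simulated data. No level of PCDH11Y is given.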

Additional observations from a re-analysis of the deposited data

Results flagged for a closer look

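The change of PCDH8 with 100 nM rotenone differed between days. It was -1.52 on day 8 and 0.21 on day 15 after wash-out, and the interaction term was 1.73 on the log2 scale (SE 0.18, adjusted p = 5.1e-05 in limma). All 3 treated arrays lay below DMSO on day 8, and the groups overlapped on day 15. No other protocadherin whose levels are given passed this test.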

How the results depend on the processing

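PCDH8 at 100 nM and at 50 nM for 24 h on day 8, between DMSO days and in the interaction, and PCDH9 between DMSO days, kept their direction and call under every alternative run, and no named gene reversed. Counts of called protocadherins moved as follows. At 100 nM on day 8 the 4 became 2 with a normexp offset of 50, 2 without batch correction and 1 on slides 2 and 3 alone, and 3 to 4 when 1 array was left out. At 50 nM for 24 h on day 8 the 3 became 1 in each of these settings and 1 when fitted on the compared arrays only, and 1 to 4 when 1 array was left out, the lowest without replicate 3 of the treated group. At 50 nM for 12 h the 2 became 0 in each of these 4 settings and 4 with scaling to the 75th percentile. It ranged from 1 to 2 with 1 array left out, at 1 without any replicate of DMSO or replicate 1 or 2 of the treated group. Between DMSO days the 6 became 16 with the processed signal, of which 15 were higher, and 2 on slides 2 and 3, with 5 to 8 when 1 array was left out. The processed signal moved the median of all genes to 0.15 there. The 2 interaction calls became 4 with the processed signal or 75th percentile scaling and 1 without batch correction, on slides 2 and 3 or on the compared arrays only, with 1 to 3 when 1 array was left out. Between 24 h and 12 h of 50 nM the 1 became 0 with the offset, no batch correction, the replicate block, slides 2 and 3, the authors' values, the compared arrays only, and without any 1 array of these groups (0 to 0). At 100 nM on day 15 the 0 became 1 without replicate 1 of the treated group (0 to 1). The replicate block changed no call but that one and PCDHA6 at 50 nM (-0.74, adjusted p = 0.054). Slides 2 and 3 leave 2 arrays per group. The causes were not tested. Signal near background limits the members that are well above it on few arrays.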
